A study of Homo sapiens with 6 samples.

Results

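The lung and foregut lineage transcription factors described here are NKX2-1, FOXA1, FOXA2, FOXA3, FOXP2, GATA6, SOX2, SOX9 and HNF4A. They were chosen by gene symbol, under a rule that names no measured value but was written with earlier results of these data known, and all 9 were found among the 19903 genes listed for each library. RNA sequencing measured their messenger RNA in 3 human lines that the labels call lung cancer lines, at passage 5. The libraries were a malin and an empty-vector library labelled H2030, a malin and an empty-vector library of A549, and a malin and an empty-vector library of H1299. Malin, the product of NHLRC1, is an E3 ubiquitin ligase, and the series title describes its re-expression in cancer cells. A549, H1299 and H2030 are known as lines from human non-small-cell lung tumours. Every combination of line and vector had a single library, without a replicate of its own. The labels do not say whether cells were pooled or cloned after the vector was introduced, or whether the cultures were independent. P-values therefore measure only the spread between these libraries.

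Lineage transcription factors set which genes a tissue can use. The FOXA proteins open closed chromatin in endoderm, the layer that forms the lung, liver, pancreas and gut. NKX2-1 then marks the lung and thyroid fields, SOX2 the airways and oesophagus, SOX9 the growing lung tips, and HNF4A the liver and gut. Lung adenocarcinomas are often sorted by such factors, with NKX2-1 as the usual mark of lung identity and HNF4A as a mark of a gastrointestinal programme.

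Depth and labels bear on every value that follows. The unit was FPKM, fragment numbers scaled by transcript length and by the size of the library, so levels may be compared between genes. The spacing of low values gave an estimated 8300000 to 10700000 fragments per library, and 11861 to 13179 genes reached 1 FPKM. NHLRC1 stood at 3.69, 6.82 and 119.2 FPKM in the malin libraries labelled H2030, A549 and H1299, against 0.18, 1.21 and 2.85 FPKM in their empty-vector partners. The value column of the malin library labelled H2030 carries a heading for HEK293T cells, which come from human embryonic kidney, so its heading and its label disagree. Its empty-vector partner is headed H2030. A list of 12 kidney transcription factors summed to 72.3 and 65.7 FPKM in the malin and empty-vector libraries labelled H2030, against 11.8 to 15.1 FPKM in the 4 A549 and H1299 libraries. In both libraries labelled H2030 the kidney factor PAX8, from the same list, was listed at 0. It did not exceed 0.93 FPKM in any library, was not among the factors tested and was named after its values were seen. In limma, 9 factors of the list were tested. Against A549, 7 were called higher and 1 lower in the libraries labelled H2030 (adjusted p under 0.05), beside 45% and 22.1% of all genes. Against H1299, 5 were called higher and 1 lower in that pair, beside 40.9% and 23.8%. HOXD11, POU3F3, SALL1 and SIX2 passed the filter on mean FPKM only through the libraries labelled H2030. The counts called higher therefore support nothing about the list. The pair is called the libraries labelled H2030 throughout, and member differences, member counts and list counts between lines that rest on it are also given without its malin library. Without it that label has a single library, and the spread comes from A549 and H1299 alone. More genes pass the threshold there, so a call kept in that setting is no check.

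Each line had its own combination of factors. FOXA2 and HNF4A stood highest in A549, SOX9 stood highest in H1299, and GATA6, FOXP2, FOXA3, NKX2-1 and SOX2 stood highest in the libraries labelled H2030. FOXA1 was highest in A549, with the libraries labelled H2030 close behind. In these bulk samples, a lower level in every cell and fewer cells with the transcript cannot be told apart.

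**Figure D1:**
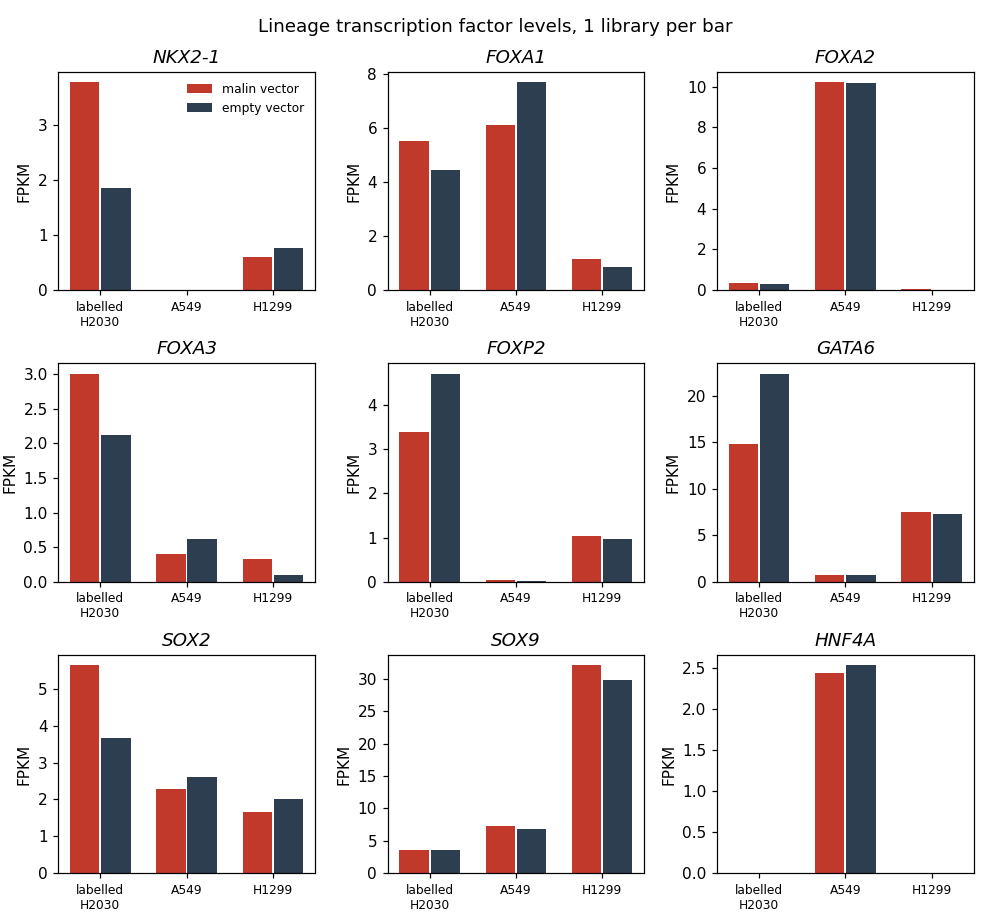
Level of each lineage transcription factor in FPKM (vertical axis, a separate linear scale per gene), with 1 bar per library, malin vector in red and empty vector in dark blue. HNF4A has bars only in A549, while SOX9 reaches 32.09 and 29.79 FPKM in H1299 and 3.63 and 3.54 FPKM in the libraries labelled H2030.

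NKX2-1 (chr14:36516397-36520232, minus strand, RefSeq GRCh38.p14) encodes the homeobox factor that switches on surfactant and other lung genes. The malin and empty-vector libraries labelled H2030 held 3.78 and 1.85 FPKM. In A549 it was listed at 0 in both libraries, where 3 fragments would have stood at 0.138 and 0.139 FPKM. H1299 had 0.60 FPKM with malin and 0.77 FPKM with the empty vector, an estimated 12 and 17 fragments. The libraries labelled H2030 were the only ones above 1 FPKM, and no line overlapped another. In limma the difference on log2(FPKM+1) between the libraries labelled H2030 and A549 was 1.88 (SE 0.239, adjusted p = 0.000887). Against H1299 it was 1.13 (adjusted p = 0.00722 in limma), and without the malin library labelled H2030 the same differences were 1.48 and 0.72. The comparison with H1299 missed the threshold under quantile normalization (0.55, limma adjusted p = 0.154) and without the H1299 malin library (0.87, limma adjusted p = 0.0625). A549 lay below H1299 by -0.75 (limma adjusted p = 0.0355), a call lost with a pseudocount of 5 (adjusted p = 0.192) or with no filter (adjusted p = 0.0678). Leaving out either A549 library or the empty-vector library of H1299 also ended it. NKX2-1 passed the filter only through the libraries labelled H2030, and A549 at 0 adds no spread. These p-values therefore add nothing to the levels given.

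The sequence before the upstream NKX2-1 start is shown because NKX2-1 is the factor by which lung identity is usually read, and because FOXA proteins bind forkhead motifs. Capitals mark a match to the forkhead motif TGTTTNC, on either strand, that begins 241 bases before the start. The stretch is chr14:36520287-36520482 on the minus strand, 196 bases that stop before an untranslated exon.
NKX2-1 upstream: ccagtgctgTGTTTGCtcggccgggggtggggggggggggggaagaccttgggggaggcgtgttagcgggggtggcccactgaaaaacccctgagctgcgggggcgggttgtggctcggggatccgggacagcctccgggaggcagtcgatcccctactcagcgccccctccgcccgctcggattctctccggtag
A match describes letters and not a bound site, and 15.5% of the 35116 RefSeq promoter windows of the same length hold this motif. The second NKX2-1 window also held a forkhead match, 130 bases before its start, and a match to CAAGTG, the letters of the NK2 homeobox motif, 147 bases before it. That motif was found in 9.50% of windows. FPKM is per gene and does not separate the 2 starts, and the antisense gene NKX2-1-AS1 shares 402 exon bases with NKX2-1 in GENCODE 29. The sources used here do not say if reads were assigned by strand.

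FOXA1, FOXA2 and FOXA3 are the 3 FOXA pioneer factors. FOXA1 (chr14:37589552-37595249, minus strand) acts in lung, breast and prostate epithelium. Its levels were 5.53 and 4.44 FPKM in the malin and empty-vector libraries labelled H2030, 6.11 and 7.70 FPKM in A549, and 1.15 and 0.87 FPKM in H1299. H1299 was lowest, and the gap between the other lines was smaller than the gap between the libraries within either of them. FOXA1 was higher in the libraries labelled H2030 than in H1299 by 1.57 (SE 0.181, limma adjusted p = 0.000632; 1.42 without the malin library labelled H2030), and higher in A549 than in H1299 by 1.97 (limma adjusted p = 0.000337). Between the libraries labelled H2030 and A549 the difference was -0.40 (limma adjusted p = 0.0954). That comparison passed the threshold after median-of-ratios scaling (-0.73, limma adjusted p = 0.0131) and after quantile normalization (-0.74, limma adjusted p = 0.0187). Without the malin library labelled H2030 it was -0.55. It moved the other way without the A549 empty-vector library (-0.14, limma adjusted p = 0.643) and without the empty-vector library labelled H2030 (-0.25, limma adjusted p = 0.275), and was -0.66 without the A549 malin library (limma adjusted p = 0.0562).

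FOXA2 (chr20:22580998-22585490, minus strand) is the family member most tied to early endoderm and to the alveolar epithelium. It measured 0.36 and 0.31 FPKM in the malin and empty-vector libraries labelled H2030, 10.22 and 10.20 FPKM in A549, and 0.04 and 0 FPKM in H1299. A549 held nearly all of it, an estimated 245 and 242 fragments, against 8 and 6 in the pair labelled H2030. The differences were -3.07 for the libraries labelled H2030 against A549 (SE 0.135, limma adjusted p = 2.48e-05) and 3.46 for A549 against H1299 (limma adjusted p = 1.90e-05). FOXA2 in the pair labelled H2030 differed by -3.08 from A549 and by 0.38 from H1299 when the malin library was left out. The libraries labelled H2030 stood above H1299 by 0.39 (limma adjusted p = 0.0455), a difference between values below 1 FPKM. That small difference lost its call with a pseudocount of 5, with all gene classes, with either scaling alternative and without any 1 of the A549 or H1299 libraries (limma adjusted p of 0.0507 to 0.424).

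FOXA3 (chr19:45864326-45873797, plus strand) works mainly in liver and gut. The malin and empty-vector libraries labelled H2030 held 3.01 and 2.12 FPKM, against 0.40 and 0.61 FPKM in A549 and 0.32 and 0.10 FPKM in H1299. Only the libraries labelled H2030 passed 1 FPKM. They exceeded A549 by 1.24 (SE 0.184, limma adjusted p = 0.00167) and H1299 by 1.55 (limma adjusted p = 0.000714), while A549 and H1299 differed by 0.32 (limma adjusted p = 0.181). Without the malin library labelled H2030 the first 2 differences were 1.07 and 1.39. Quantile normalization lowered them to 0.63 (limma adjusted p = 0.0433) and 0.97 (limma adjusted p = 0.00984), both still called. The difference between A549 and H1299 was 0.06 without the A549 empty-vector library and 0.57 without the A549 malin library (limma adjusted p of 0.842 and 0.0805). FOXA2 was thus highest in A549 and FOXA3 in the libraries labelled H2030. FOXA1 was lowest in H1299, with no call between the other lines in the main test.

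HNF4A (chr20:44355699-44434596, plus strand) encodes a nuclear receptor that maintains hepatocyte and intestinal genes. It was listed at 0 in both libraries labelled H2030 and in both H1299 libraries, while A549 held 2.44 FPKM with malin and 2.53 FPKM with the empty vector. Each A549 value rests on an estimated 28 fragments, counted on the shortest listed transcript. In the libraries at 0, 3 fragments would have stood at 0.257 to 0.331 FPKM. A549 was separate from all the others, and the H1299 libraries and those labelled H2030 could not be ordered. The mean of 0.828 FPKM was below the filter of 1 FPKM, so HNF4A was the 1 member left out of the main test. With no filter, over 17541 genes, the difference was -1.80 for the libraries labelled H2030 against A549 (SE 0.0721, limma adjusted p = 0.000347) and 1.80 for A549 against H1299 (limma adjusted p = 0.000419). Libraries listed at 0 add no spread of their own, so these p-values add nothing to the levels given.

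HNF4A is transcribed from alternative promoters, and both windows are shown because the gene was above 0 in A549 only. Capitals mark matches to the HNF1 half-site GTTAAT on either strand, which 6.23% of windows hold. The windows are chr20:44355449-44355698 and chr20:44400989-44401238 on the plus strand.
HNF4A first window: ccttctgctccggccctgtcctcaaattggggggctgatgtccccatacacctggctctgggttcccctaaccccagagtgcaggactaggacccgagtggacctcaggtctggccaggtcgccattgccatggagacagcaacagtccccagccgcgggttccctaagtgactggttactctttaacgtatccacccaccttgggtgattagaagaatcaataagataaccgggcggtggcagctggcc
HNF4A second window: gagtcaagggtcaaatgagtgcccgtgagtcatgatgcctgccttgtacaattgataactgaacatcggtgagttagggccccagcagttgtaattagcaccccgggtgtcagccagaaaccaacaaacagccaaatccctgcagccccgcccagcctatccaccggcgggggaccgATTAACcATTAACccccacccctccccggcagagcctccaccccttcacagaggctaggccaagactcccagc
The second window held 2 half-sites, beginning 73 and 66 bases before its start, and the first window held none. Gene-level FPKM does not tell the 2 HNF4A promoters apart.

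GATA6 (chr18:22169589-22202528, plus strand) is a zinc-finger factor of endoderm and of the distal lung epithelium. The malin and empty-vector libraries labelled H2030 had 14.86 and 22.40 FPKM, A549 had 0.72 and 0.73 FPKM, and H1299 had 7.50 and 7.23 FPKM. These 3 levels did not overlap. GATA6 was higher in the libraries labelled H2030 than in A549 by 3.48 (SE 0.187, limma adjusted p = 4.40e-05) and than in H1299 by 1.20 (limma adjusted p = 0.00211). It was lower in A549 than in H1299 by -2.28 (limma adjusted p = 0.000232). Without the malin library labelled H2030 the first 2 differences were 3.77 and 1.49. The antisense genes GATA6-AS1 and AC091588.3, share 240 and 321 exon bases with GATA6 in GENCODE 29.

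FOXP2 (chr7:114086327-114693765, plus strand), a forkhead repressor of the distal airway epithelium in mouse, followed the same order of lines as GATA6. Its levels were 3.40 and 4.72 FPKM in the malin and empty-vector libraries labelled H2030, 0.03 and 0.02 FPKM in A549, and 1.03 and 0.97 FPKM in H1299. A549 was below the 0.220 and 0.222 FPKM that 3 fragments would give on the shortest transcript, so no fold against it is given. In limma the differences were 2.29 for the libraries labelled H2030 against A549 (SE 0.166, adjusted p = 0.000109), 1.33 against H1299 (adjusted p = 0.000903) and -0.96 for A549 against H1299 (adjusted p = 0.00368). Without the malin library labelled H2030 the first 2 were 2.50 and 1.53, and quantile normalization lowered that against H1299 to 0.85 (limma adjusted p = 0.00717). FOXP2 has 8 listed transcripts, and estimated fragments and the floor use the shortest, of 1412 bases, where the longest has 6443. On a longer transcript the floor would be lower. On the shortest, the A549 values round to 0 fragments although they are above 0.

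SOX2 and SOX9 are HMG-box factors that divide the developing lung into airway and tip. SOX2 (chr3:181711925-181714436, plus strand) varied least of the 9 genes, by 1.33 on log2(FPKM+1) between its lowest and highest library. It measured 5.65 and 3.67 FPKM in the malin and empty-vector libraries labelled H2030, 2.29 and 2.61 FPKM in A549, and 1.65 and 2.01 FPKM in H1299. The lines did not overlap, but the gap between A549 and H1299 was smaller than the gap between the libraries within either line. SOX2 was higher in the libraries labelled H2030 than in H1299 by 0.98 (SE 0.207, limma adjusted p = 0.00722) and than in A549 by 0.69 (limma adjusted p = 0.0261). The call against A549 was lost without the malin library labelled H2030 (0.36, limma adjusted p = 0.0569), without either A549 library, with no filter, after median-of-ratios scaling (0.39, adjusted p = 0.152) and after quantile normalization (0.26, adjusted p = 0.390). The call against H1299 was lost after quantile normalization (0.56, limma adjusted p = 0.0968). Without the malin library labelled H2030 the difference was 0.65. Without the H1299 malin library it was 0.79 and no longer called. A549 and H1299 differed by 0.29 (limma adjusted p = 0.270). That difference passed the threshold when either library labelled H2030 was left out and the spread came from A549 and H1299 alone. Leaving out 1 of the A549 or H1299 libraries gave 0.10 to 0.47 for that difference, with no call (limma adjusted p of 0.247 to 0.807). SOX2 lies inside SOX2-OT, which shares no exon base with it and did not exceed 0.28 FPKM in any library.

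SOX9 (chr17:72121020-72126416, plus strand) stood at 3.63 and 3.54 FPKM in the malin and empty-vector libraries labelled H2030, 7.24 and 6.86 FPKM in A549, and 32.09 and 29.79 FPKM in H1299. Its level in H1299 was the highest of any member in any library and ranked 2653 and 2834 of 19903 genes with malin and empty vector. The lines were well separated and the libraries within a line close. SOX9 was lower in the libraries labelled H2030 than in A549 by -0.81 (SE 0.116, limma adjusted p = 0.00144) and than in H1299 by -2.80 (limma adjusted p = 2.58e-05). It was also lower in A549 than in H1299 by -1.99 (limma adjusted p = 7.37e-05). Leaving out the malin library labelled H2030 gave -0.78 and -2.77 for the first 2 differences, and quantile normalization gave -1.22 for the first (limma adjusted p = 0.000466).

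**Figure D2:**
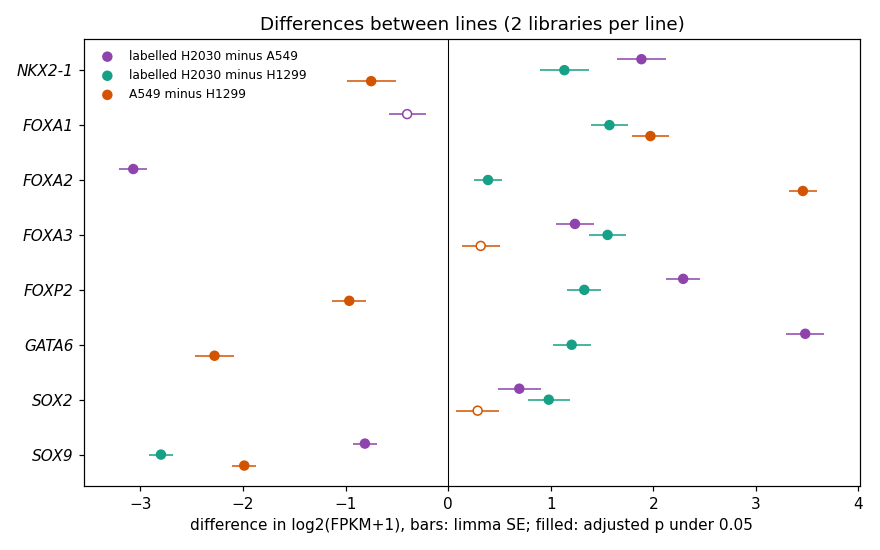
Difference between lines in log2(FPKM+1) for the 8 tested members (horizontal axis), with limma standard errors as bars and filled points where the adjusted p was under 0.05. FOXA2 runs from -3.07 to 3.46 and SOX9 is negative in all 3 comparisons, while the open points are FOXA1, FOXA3 and SOX2.

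Counts over the members are to be read against a high background, since most genes differed between these lines. Between the libraries labelled H2030 and A549, 5 members were called higher and 2 lower of 8 tested, where 67% of all 12184 tested genes were called (45% higher, 22.1% lower). Between the libraries labelled H2030 and H1299, 7 were called higher and 1 lower, against 64.7% of all genes (40.9% higher, 23.8% lower). Between A549 and H1299, 2 were called higher and 4 lower, against 61.6% of all genes (27.2% higher, 34.5% lower). NKX2-1, FOXA2, FOXA3 and FOXP2 passed the filter only through the line in which they stood highest, so the counts support nothing about the group. The p-values of these genes in comparisons with that line likewise add nothing to the levels given. With the malin library labelled H2030 left out, 7 members were called against A549 and 8 against H1299, where 75.6% and 73.7% of all genes were. Scaling moved the split of all calls: 67.1% of the calls against A549 were higher in the libraries labelled H2030 as deposited, 45.7% after median-of-ratios scaling and 54.9% after quantile normalization. Against H1299 these shares were 63.2%, 47.2% and 53.1%. The median difference of all genes was 0.286 against A549 and 0.217 against H1299, and median-of-ratios scaling moved it by -0.338 and -0.251. Every tested member kept its direction in the 3 line comparisons under both scalings.

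The malin vector was compared with the empty vector over the 3 lines, with line as a block. No gene of 12184 passed the adjusted threshold in limma (0%), so none of the 8 tested members did, and 213 genes (1.75%) had an unadjusted p under 0.05. Member differences on log2(FPKM+1) ran from -0.17 for GATA6 to 0.20 for NKX2-1 (SE 0.152 and 0.195), with limma adjusted p of 0.927 to 0.968. Without the libraries labelled H2030 those of GATA6 and NKX2-1 changed sign, to 0.019 and -0.073. NHLRC1 itself differed by 2.93 (SE 0.603) and had a limma adjusted p of 0.927, with an SD of 1.77 between the differences of the 3 lines. A p that misses the threshold in this design does not show that the levels were equal.

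Within a line, the libraries labelled H2030 differed most. Over all tested genes the SD of the difference between malin and empty vector was 0.396 there, against 0.183 in A549 and 0.158 in H1299. A change of at least 1.5-fold on the FPKM+1 scale was seen for 1 of 9 members in the libraries labelled H2030 (NKX2-1, higher), where 11.6% of all genes passed it (4.28% higher, 7.33% lower). No member passed it in A549 (background 1.12%, with 0.542% higher and 0.583% lower) or in H1299 (background 0.476%, with 0.328% higher and 0.148% lower). The share in the libraries labelled H2030 was thus near its background, and the column heading of that malin library differs from its label. How far the different heading accounts for these differences was not tested.

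**Figure D3:**
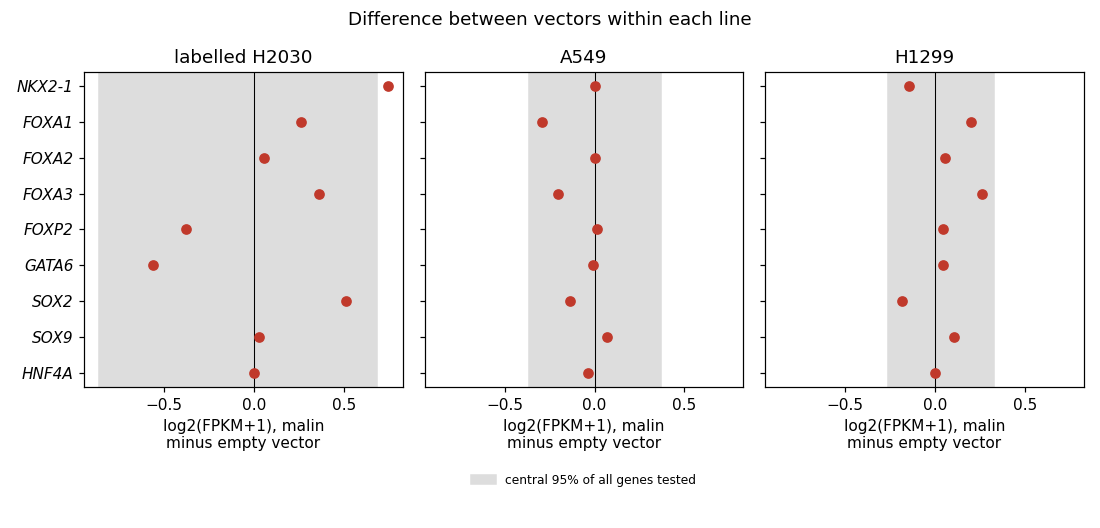
Difference in log2(FPKM+1) between the malin and the empty-vector library of each line (horizontal axis) for the 9 members, with the central 95% of all tested genes in grey. NKX2-1 in the libraries labelled H2030, at 0.75, is the only point outside the grey band, which there runs from -0.865 to 0.686.

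Fragment numbers give the counting error of these pairs, as exact binomial 95% intervals that cover counting error only. NKX2-1 stood at 3.78 FPKM with malin against 1.85 FPKM with empty vector in the libraries labelled H2030, a ratio of 2.04 (interval 1.33 to 3.18, an estimated 77 and 32 fragments). In H1299 the ratio was 0.779 (interval 0.332 to 1.70). SOX2 had a ratio of 1.54 in the libraries labelled H2030 (interval 1.15 to 2.07), and 0.877 and 0.821 in A549 and H1299 with intervals that included 1. GATA6 was lower with malin in the libraries labelled H2030, at a ratio of 0.663 (interval 0.591 to 0.744, an estimated 534 and 682 fragments). In H1299 its ratio was 1.04 (interval 0.873 to 1.23). FOXA1 in A549 had a ratio of 0.794 (interval 0.649 to 0.975), and FOXA1 elsewhere and FOXA2, FOXA3, SOX9 and HNF4A everywhere had intervals that included 1 or too few fragments for one. FOXP2 had a ratio of 0.720 in the libraries labelled H2030 (interval 0.477 to 1.12), counted on its shortest transcript. That transcript has 1412 bases and the longest 6443. A longer one would mean more fragments and a narrower interval, so whether it includes 1 is undecided. SOX9 carried the most fragments, and its ratios of 1.03 in the libraries labelled H2030, 1.06 in A549 and 1.08 in H1299 lay closest together among the members with a ratio in every line.

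Genes known to act with these factors were described from lists by role. In several lists some genes passed the filter only through the line in which they stood highest, such as CDX2 and ELF3. Counts for such lists support nothing about the list. Of the lung epithelial list, 17 of 22 genes were in the files and 6 were tested. Between the libraries labelled H2030 and A549, 4 were called higher and 1 lower (median 0.63, against 0.286 over all genes), where 67% of all genes were called (45% higher, 22.1% lower). Against H1299, 1 was called higher and none lower (median 0.16, against 0.217), beside 64.7% of all genes, and between A549 and H1299 2 were higher and 1 lower (median -0.26, against -0.09), beside 61.6%. Without the malin library labelled H2030, 4 were higher and 1 lower against A549, and 3 higher and none lower against H1299, where 75.6% and 73.7% of all genes were called. After median-of-ratios scaling, 2 were higher and 1 lower against A549, and 1 higher and none lower against H1299, beside 65.1% (29.7% higher, 35.4% lower) and 63.2% (29.8% higher, 33.4% lower) of all genes. LPCAT1, an enzyme of surfactant lipid synthesis, stood at 43.45 and 35.04 FPKM in the malin and empty-vector libraries labelled H2030, 24.39 and 21.52 FPKM in A549, and 17.08 and 16.28 FPKM in H1299. ABCA3, the lipid transporter of lamellar bodies, stood at 11.08 and 17.37, 9.30 and 7.97, and 11.14 and 11.20 FPKM in the same order. The surfactant protein genes SFTPB and SFTPC, defining markers of the alveolar type of cell, did not exceed 0.11 FPKM in any library, those with NKX2-1 included. CEACAM6, an epithelial adhesion gene, passed 1 FPKM only in A549, at 1.92 FPKM with malin and 4.95 FPKM with empty vector, and MUC1, a mucin, was between 1.80 and 2.62 FPKM throughout.

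The liver and gut list had 26 of 30 genes in the files and 6 tested. Between the libraries labelled H2030 and A549, 2 were called higher and 2 lower (median -0.37). Against H1299, 3 were higher and 1 lower (median 0.38), and between A549 and H1299 4 were higher and 1 lower (median 0.76, against -0.09 over all genes). The shares of all genes called were those given for the lung list. Leaving out the malin library labelled H2030, 2 were higher and 3 lower against A549, and 3 higher and 1 lower against H1299, and median-of-ratios scaling gave the same counts. CDX2, a master factor of intestinal epithelium, measured 18.85 and 15.81 FPKM in the malin and empty-vector libraries labelled H2030, 0.56 and 1.0 FPKM in A549, and 0.05 and 0.04 FPKM in H1299. NR5A2, a nuclear receptor of liver, pancreas and gut, stood highest in A549. It measured 0.90 and 0.81 FPKM with malin and empty vector in the pair labelled H2030, 5.87 and 5.48 FPKM in A549, and 0.18 FPKM in both H1299 libraries. HHEX, an early liver and pancreas factor, was higher in A549 than in H1299 by 0.75 (limma adjusted p = 0.0375).

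**Figure D4:**
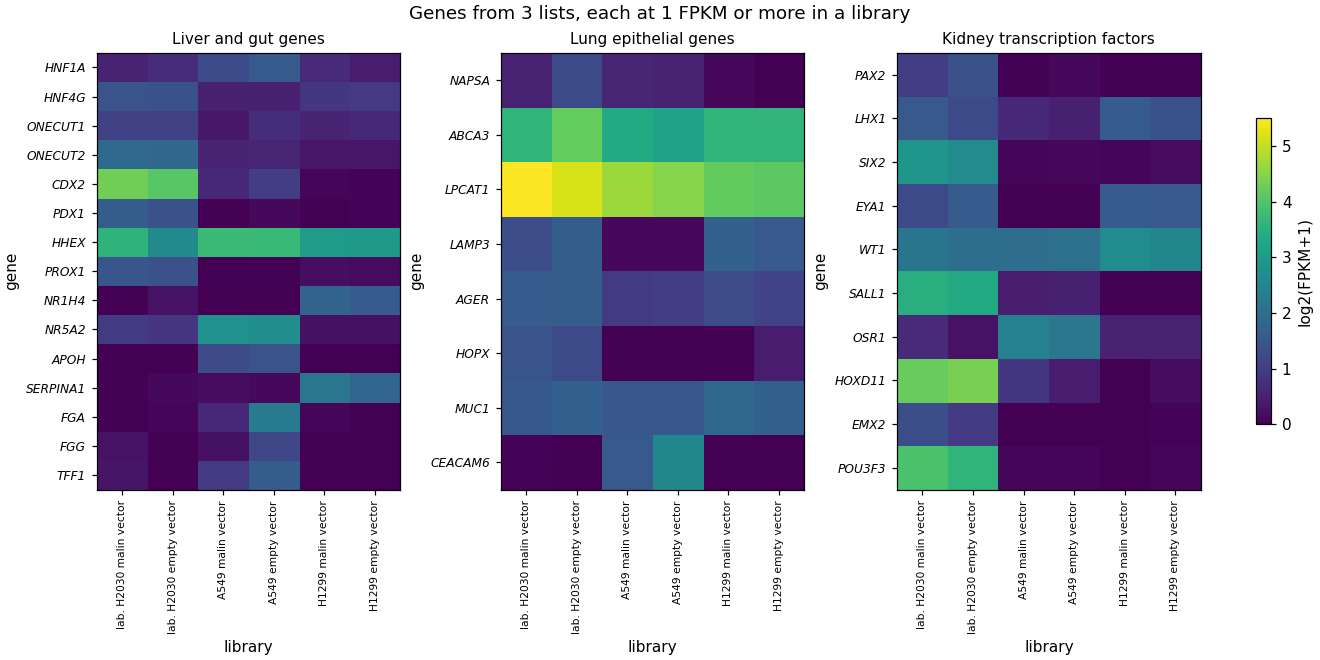
Levels as log2(FPKM+1) (colour scale) of genes from the liver and gut, lung epithelial and kidney lists, each at 1 FPKM or more in at least 1 library, with genes as rows and libraries as columns. NR5A2 is brightest in the A549 columns, and CDX2, HOXD11 and POU3F3 in those labelled H2030.

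Among the other lung and foregut regulators, 32 of 33 were in the files and 19 were tested. Between lines, the numbers called higher and lower were 13 and 3 between the libraries labelled H2030 and A549, 14 and 3 between them and H1299, and 11 and 4 between A549 and H1299. The medians were 1.04, 1.5 and 0.87, beside 0.286, 0.217 and -0.09 over all genes, and 67%, 64.7% and 61.6% of all genes were called. The counts without the malin library labelled H2030 were 14 and 3 against A549 and 14 and 3 against H1299, and after median-of-ratios scaling they were 11 and 4, and 14 and 3. ID2, a helix-loop-helix inhibitor that marks the distal lung tip in mouse, stood at 204.3 and 129.7 FPKM in the malin and empty-vector libraries labelled H2030, 143.6 and 117.8 FPKM in A549, and 7.59 and 8.29 FPKM in H1299. ELF3, an epithelial ETS factor, was at 35.32 and 62.56 FPKM in A549 with malin and empty vector and at no more than 0.04 FPKM elsewhere. HES1, the Notch target, measured 18.33 and 45.43 FPKM in the malin and empty-vector libraries labelled H2030, and FOXM1, a factor of cell division, was between 58.82 and 106.95 FPKM in every library. The kidney list, of which 9 of 12 were tested, had 7 higher and 1 lower between the libraries labelled H2030 and A549. Against H1299 it had 5 higher and 1 lower, and between A549 and H1299 3 higher and 3 lower, with medians of 1.45, 1.45 and -0.0040, beside 0.286, 0.217 and -0.09 over all genes. The shares of all genes called were 67% (45% higher, 22.1% lower), 64.7% (40.9%, 23.8%) and 61.6% (27.2%, 34.5%). The counts against A549 and against H1299 were the same without the malin library labelled H2030 and after median-of-ratios scaling. HOXD11 stood at 17.74 and 19.63 FPKM, POU3F3 at 14.10 and 11.05 and SALL1 at 9.90 and 9.11 in the malin and empty-vector libraries labelled H2030. Their part in the member levels there was not tested.

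Lists for other cell types had few tested genes. Fibroblast and endothelial markers summed to 16.5 and 12.9 FPKM in the malin and empty-vector libraries labelled H2030 and to between 0.57 and 2.44 FPKM in the others. COL1A1, a fibroblast collagen, made up 9.05 and 6.35 FPKM of the sums labelled H2030. Of that list 2 of 9 were tested. Both were called higher in the libraries labelled H2030 against A549 and against H1299, where 45% and 40.9% of all genes were called higher. Both stayed so after median-of-ratios scaling, beside 29.7% and 29.8% of all genes. Their medians were 1.86 and 2.49, beside 0.286 and 0.217 over all genes, and 1.74 and 2.37 without the malin library labelled H2030. Both genes passed the filter only through the libraries labelled H2030, and only 2 were tested, so these counts support nothing about the list. Immune markers summed to 3.27 to 5.42 FPKM in the 6 libraries, and the 1 tested, the lysozyme gene LYZ, was called in no comparison, and likewise without the malin library labelled H2030. Of 10 neuroendocrine and neural markers 5 were tested: 3 were called higher and 1 lower in the libraries labelled H2030 against A549, likewise 3 and 1 against H1299, and 2 higher and none lower in A549 against H1299, with medians of 2.12, 2.74 and 0.01. Over all genes 67%, 64.7% and 61.6% were called, with medians of 0.286, 0.217 and -0.09. The neural counts without the malin library labelled H2030 were 4 and 1 against A549 and 3 and 1 against H1299, and median-of-ratios scaling left them at 3 and 1 in both. TUBB3, a neural tubulin, was the 1 called lower in both comparisons with the libraries labelled H2030. It measured 7.24 and 10.29 FPKM with malin and empty vector in that pair. In A549 it had 172.0 and 137.7 FPKM, and in H1299 201.2 and 189.8 FPKM. Called higher in both were SYP, NCAM1 and NES. With malin and empty vector they measured 13.75 and 20.15, 6.21 and 9.51, and 8.55 and 9.79 FPKM in the same pair. In A549 and H1299 they did not exceed 2.89, 0.02 and 1.37 FPKM. NCAM1 and NES passed the filter only through the libraries labelled H2030. No list had a called gene between the vectors.

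Some genes followed a member's pattern closely. For members that spanned at least 2 on log2(FPKM+1), the 3 nearest genes were found by the root mean square difference over the 6 libraries after each gene was centred on its mean. With only 3 lines behind the 6 points, such likeness is a description. NKX2-1 lay nearest to MEX3A (0.05), HAND2 (0.08) and RNPC3 (0.10), and FOXA2 to SGK223 (0.09), HHIPL2 (0.09) and NAAA (0.11). HHIPL2, like FOXA2, was near 0 outside A549, at 10.02 and 9.29 FPKM in A549 with malin and empty vector. GATA6 had looser neighbours in FAM184A (0.17), DTNA (0.21) and GPM6B (0.21). FOXA1 was nearest to IRF2BP1 (0.10), GSTP1 (0.12) and TMEM41B (0.12), FOXP2 to DMC1 (0.06), HMGB2 (0.08) and BRD2 (0.08), and SOX9 to PCDHB6 (0.09), EVC2 (0.11) and ERCC1 (0.12). SOX2, FOXA3 and HNF4A spanned less than 2.

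Promoter windows of 250 bases matched 7 of the 9 members in RefSeq GRCh38.p14, and for FOXP2, HNF4A and NKX2-1 there were 2 windows each. The FOXA1 window held a forkhead match 235 bases before the start and an NK2 homeobox match 12 bases before it. The FOXP2 windows precede starts at chr7:114414815 and chr7:114426502, which lie inside the gene span given above and not at its first base. The first FOXP2 window held an HNF1 half-site at 230 bases, a match to the GATA motif GATAAG at 159 bases and a match to the SOX motif ACAATG at 205 bases before its start. Its second window held an HNF1 half-site at 29 bases. The GATA and SOX motifs were found in 5.65% and 9.29% of all windows, and the HNF4 half-site CAAAGTCC, found in 1.02%, matched no member's window. The windows of FOXA3, GATA6 and SOX2 and the first window of HNF4A held none of the 6 motifs, which says only that these letters were not there.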

How the data were processed

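RNA sequencing of 6 libraries was analysed from gene-level FPKM deposited by the authors, a unit taken from the file headers. Per the submitters' processing notes, the tools were STAR, Cufflinks, cutadapt and FastQC, on hg38. FPKM depends on the library total, so abundant genes can shift the others. Symbols that were blank or turned into dates (37) were replaced by identifier, and RefSeq GRCh38.p14 matched 19770 genes, 17541 of them protein coding. Members and gene lists were chosen with earlier results of these data known. Depth came from the spacing of low FPKM values: 80.6% to 82.0% lay within 0.2 of a whole fragment, where 40% would by chance for a fixed step. Log2(FPKM+1) of protein-coding genes with a mean of at least 1 FPKM was modelled in R 4.3.3 with limma 3.58.1 (line plus vector, intensity trend, Benjamini-Hochberg at 0.05, 2 residual degrees of freedom), tested on simulated data. This scale understates changes of low genes. The vectors stand in as the 2 libraries of a line, so a vector effect that differs between lines enters the spread. Pairs are the same line, per the labels. Named genes were all members, the 3 nearest genes of each member spanning at least 2, and up to 4 list genes with the highest level. PAX2, PAX8, EMX2, SIX2, SFTPB and SFTPC lie outside it and were named after their values were seen. A few genes picked by this rule are not reported here. Overlaps came from GENCODE 29. Intervals are exact binomial, and floors are 3 fragments. Other pseudocounts, filters, scalings, gene classes, fits and left-out libraries were tried, those leaving out 1 library and those of the list counts having been chosen after seeing the data. Tables and figures were made with Python 3.11.15, pandas 2.3.3, numpy 2.4.6, matplotlib 3.10.9 and scipy 1.17.1.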

Additional observations from a re-analysis of the deposited data

Results flagged for a closer look

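NKX2-1 had differences of opposite sign between malin and empty vector in different lines. In the libraries labelled H2030 the difference on log2(FPKM+1) was 0.75, and in H1299 it was -0.15. The H1299 value rests on an estimated 12 fragments with malin and 17 with empty vector, a ratio of 0.779 whose 95% interval of 0.332 to 1.70 includes 1, so a lower level with malin there is not shown. The malin library labelled H2030 carries the column heading of another line. The difference between the lines was not tested, as each rests on 1 library per vector.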

How the results depend on the processing

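With no replicate block, malin against empty vector called 0 genes and 0 members, as with the block, so the block changed no call. Leaving out each line gave 0 to 1 genes called, the 1 without the libraries labelled H2030, and member differences of -0.073 to 0.37 for NKX2-1, -0.045 to 0.23 for FOXA1, -0.18 to 0.029 for FOXP2, -0.28 to 0.019 for GATA6 and -0.16 to 0.19 for SOX2. These 5 changed sign without the libraries labelled H2030, FOXA1 also without H1299 (-0.014), and none was called. With a mean of at least 5 FPKM, fewer members were tested and 2, 2 and 2 were called in the comparisons of the libraries labelled H2030 with A549, of these with H1299, and of A549 with H1299. Quantile normalization called 5 members between the libraries labelled H2030 and H1299. Leaving out 1 library at a time gave 5 to 8 members there, the 5 without the H1299 malin library, and 5227 to 8983 genes, the fewest without the H1299 empty-vector library. For A549 against H1299 it gave 4564 to 9393 genes, with 4564 to 4826 without any 1 of the A549 or H1299 libraries. Members past 1.5-fold between vectors numbered 1 in H1299 with a pseudocount of 0.1. In the libraries labelled H2030 they numbered 3 with 0.1, 0 with 5 and 2 after quantile normalization. The cause of these shifts was not tested. Depth limits the low values: HNF4A rests on an estimated 28 fragments per A549 library, counted on its shortest transcript, and FOXA2 outside A549 on at most 8. A pseudocount of 0.1 or 5 moved line differences of low members by over 1.5 times, such as 1.88 for NKX2-1 in the libraries labelled H2030 against A549, which became 4.78 and 0.63.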
